A study of Mus musculus with 2 samples.

Results

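The Cd209 genes of the mouse encode C-type lectins, surface receptors that bind sugars on microbes and on other cells, and are the relatives of human DC-SIGN. Cd209a, Cd209b, Cd209f and Cd209g were the 4 members taken here, by their symbols, out of 32285 gene rows in each of 2 count matrices. Cd209c, Cd209d and Cd209e complete the family of 7 and were used for comparison. The members were chosen by measured values, since an earlier look at these libraries had shown lower Cd209f and Cd209g UMI counts in macrophages of 1 of them, and the differences between the libraries are therefore described and not tested.

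Each library came from the liver of 1 tumour-bearing mouse with both copies of Glul floxed, Glul being the gene of glutamine synthetase (GS). AAV8-GFP had been given to the control animal and AAV8-Cre to the GS-KO animal, 7 weeks before the cells were taken. AAV8 is a viral vector taken up mainly by hepatocytes, and the promoter that drove Cre is not given in the sources used here. Cells left in the supernatant after collagenase perfusion and a first spin were enriched on beads for F4/80, a macrophage surface protein, and dead cells were removed. The study's title concerns adaptation of macrophages in β-catenin-mutant liver cancer, and whether a given macrophage came from tumour or from the liver around it was not given in the sources used here.

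Kupffer cells are the macrophages that live in the sinusoids of the liver, where they clear microbes, old red cells and debris from blood through scavenger receptors and lectins such as Clec4f and Marco. Cd209a is known from dendritic cells and some monocytes, Cd209b from the marginal zone macrophages of the spleen, and Cd209f from resident tissue macrophages. C1q, the first component of complement, is made by macrophages, and a C1q-positive cell was here one with at least 3 UMIs of C1qa, C1qb and C1qc together that made up at least 0.2% of its UMIs. A UMI is a tag that lets all PCR copies of 1 captured RNA molecule count once.

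All 7 genes lie within 394 kb of mouse chromosome 8 (GENCODE M21, GRCm38) and are annotated as protein coding. On the minus strand, Cd209a (ENSMUSG00000031494) spans 3743397 to 3748984, Cd209b (ENSMUSG00000065987) 3917655 to 3926844 and Cd209f (ENSMUSG00000051906) 4102787 to 4105835. Cd209g (ENSMUSG00000079168) is on the plus strand at 4134098 to 4137707, so that Cd209f and Cd209g stand head to head, with RefSeq starts 29.0 kb apart. Both RefSeq starts lie inside the GENCODE spans, and the Cd209g window lies wholly inside, so that it is upstream of the RefSeq start only. The promoter windows, from 250 bases before to 50 bases after the RefSeq start (RefSeq, GRCm38.p6), are shown because these were the members found in the same cells. Both are written 5′ to 3′ along the gene, chr8:4105715-4106014 (minus strand) for Cd209f and chr8:4134486-4134785 (plus strand) for Cd209g, and the capitals mark the longest run the promoters share.
Cd209f: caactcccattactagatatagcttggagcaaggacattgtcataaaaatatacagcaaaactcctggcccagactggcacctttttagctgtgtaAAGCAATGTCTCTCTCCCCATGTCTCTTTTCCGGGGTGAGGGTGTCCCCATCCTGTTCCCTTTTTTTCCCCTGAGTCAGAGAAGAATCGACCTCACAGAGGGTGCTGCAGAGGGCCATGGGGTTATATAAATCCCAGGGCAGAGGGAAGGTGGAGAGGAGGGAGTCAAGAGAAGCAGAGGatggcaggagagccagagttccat
Cd209g: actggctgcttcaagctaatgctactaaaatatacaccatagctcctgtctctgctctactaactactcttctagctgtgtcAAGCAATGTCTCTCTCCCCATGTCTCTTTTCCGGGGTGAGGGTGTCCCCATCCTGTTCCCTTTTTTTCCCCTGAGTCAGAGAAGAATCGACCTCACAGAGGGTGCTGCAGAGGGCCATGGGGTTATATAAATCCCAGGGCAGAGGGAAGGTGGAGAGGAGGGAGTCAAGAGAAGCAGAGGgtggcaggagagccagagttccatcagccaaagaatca
The shared run is 180 bases long. Aligned locally, the promoters matched at 93.1% of 260 positions, while the longest run shared by any other pair of the 7 promoters was 17 bases. Inside the shared run stand TATAAA, the letters of a TATA box, TGAGTCA, the letters bound by AP-1 factors, and CCGGAA (on the opposite strand), the core letters of ETS factor sites. These motifs and GAGGAAGT, a PU.1-like site, were chosen after the sequences had been read, and both strands were searched. Among 32851 promoters of this length, TATAAA was present in 13.6%, TGAGTCA in 5.20%, CCGGAA in 14.9% and GAGGAAGT in 3.20%. Cd209a and Cd209b hold CCGGAA 35 and 38 bases before their starts and lack TGAGTCA in this window, Cd209a also holds TATAAA, and GAGGAAGT was in none of the 4 promoters. A match is a run of letters and not a measured binding site.

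The likeness extends to the transcripts, which bears on how far reads of Cd209f and Cd209g can be told apart. The longest annotated coding transcripts, of 1186 and 1169 bases, matched at 90.3% of 1181 aligned positions and share an exact run of 416 bases. Over the whole transcript 38.2% of 50-base windows of Cd209f and 38.7% of those of Cd209g occur in another gene. In the last 500 bases, near which a 3′ kit captures RNA, 0 of 451 windows were shared for either gene, and the same held for Cd209a and Cd209b. A read from the annotated 3′ end therefore has a single source among annotated transcripts, whereas one from further inside may not.

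The files listed 5074 control barcodes (64770011 UMIs in all) and 1366 GS-KO barcodes (8805330 UMIs), where the labels state a minimum of 7500 cells. A barcode was taken as a cell from 500 UMIs and 200 genes upward, if mitochondrial genes gave no more than 20% of its UMIs, which left 3275 and 662 cells. Glul itself stood at 3206 and 113 CPM (counts scaled to a total of 1000000 UMIs) in hepatocyte-like clusters of the control and GS-KO library, a ratio of 0.0352 (0.0261 to 0.0464), and at 288 and 240 CPM in C1q-positive cells (0.833, 0.740 to 0.934). C1q-positive cells numbered 1518 of the control cells (46.4%) and 106 of the GS-KO cells (16.0%), with median depths of 15098.5 and 10736 UMIs, and 177 and 19 cells had a C1q share between 0.1% and 0.5%, near the limit. The libraries shared 1 barcode before and 0 after filtering. With 1 mouse per group, all intervals are 95% intervals for counting error alone (exact Poisson for CPM, exact binomial for shares of cells, conditional binomial for ratios). Where a count was 0, the limit given on a share or fold is instead that of 3 counts, which is no 95% limit. The intervals cover neither differences between mice nor the clumping of UMIs in few cells described below, and are too narrow for that reason. In summed counts, fewer RNA molecules per cell and fewer cells with any cannot be told apart without the per-cell values, which are given too.

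Cd209f and Cd209g RNA lay almost wholly in C1q-positive cells, and both were lower in the GS-KO library. C1q-positive cells held 1880 of 1891 control UMIs of Cd209f (99.4%) and 499 of 505 of Cd209g (98.8%). In the control library Cd209f stood at 78.2 CPM (74.7 to 81.8) in C1q-positive cells, with a UMI in 242 of 1518 cells (15.9%, 14.1 to 17.9). In the GS-KO library it stood at 15.7 CPM (9.58 to 24.2), from 20 UMIs in 4 of 106 cells (3.77%, 1.04 to 9.38). The ratio was 0.201 (0.122 to 0.311), a level 4.98-fold lower, where the control rate would have given 99.6 UMIs. Cd209g stood at 20.7 CPM (19.0 to 22.6) in the control, with a UMI in 126 cells (8.30%, 6.96 to 9.80). It had 0 UMIs in the 106 GS-KO cells, which at 3 counts allows a share of up to 2.83% of cells with a UMI (3.42% by the exact binomial interval). Against 3 counts per library it was at least 8.82-fold lower, and the conditional interval of the ratio reached up to 0.140, while 26.4 UMIs were due at the control rate.

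As background for these differences, 10.9% of 12166 genes with at least 20 UMIs in C1q-positive cells were at least 2-fold lower in the GS-KO library and 4.87% at least 2-fold higher. With genes at 0 put at 3 counts, 6.98% were lower. In counts simulated for this comparison, 6.56% of unchanged measured genes passed the 2-fold limit downward and 1.92% upward. Among unchanged genes with control counts well above 20 UMIs, as those of Cd209f and Cd209g were, it was 0.173% and 0%. The counts were simulated without clumping in cells, so these shares do not cover it. The part of counting error in the background was not tested. Cd209f and Cd209g were among the lower genes and Cd209b in neither set, but since this contrast helped choose the members nothing is read from their number. The single GS-KO cell with most Cd209f UMIs weighs heavily. It held 14 of the 20 (70.0%), was a shallow cell of 3754 UMIs in cluster 2, and had 0 UMIs of Cd209g, while the other 3 carriers had 3, 2 and 1. Without the top cell of each library the Cd209f ratio was 0.0660 (0.0242 to 0.144), and as a mean over cells, where that shallow cell counts for more, it was 0.435. Each choice tried left the ratio below 1, as the plot of the ratio under each processing choice shows.

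**Figure D1:**
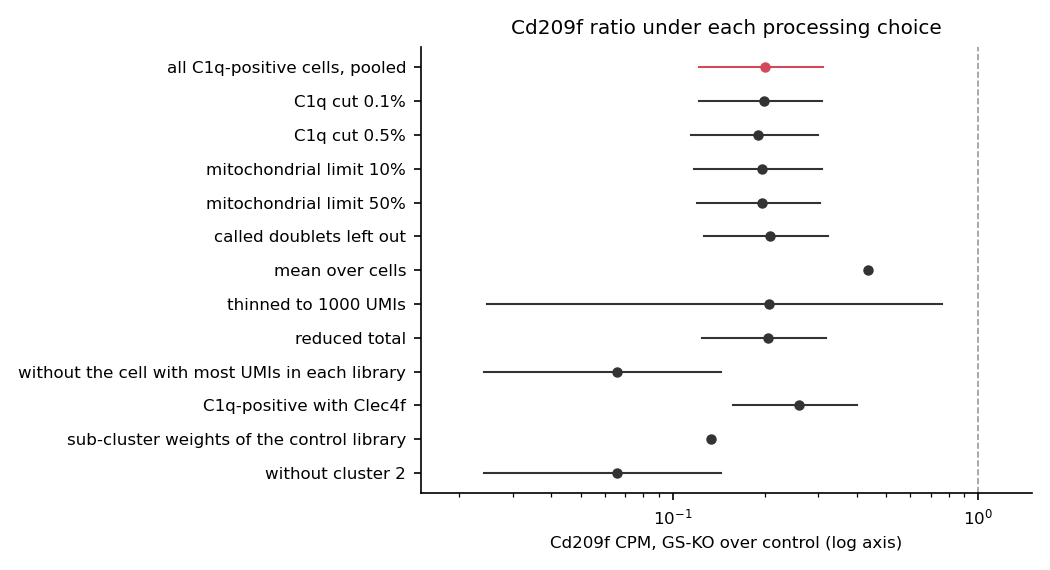
Ratio of Cd209f CPM in GS-KO over control C1q-positive cells (x axis, log scale) under each processing choice (y axis), with 95% counting intervals as lines where one exists and a dashed line at 1. The pooled value is 0.201, the highest is 0.435 for the mean over cells, and the lowest, 0.0659, is without cluster 2.

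Depth differed between the libraries, so the shares were also taken with each cell thinned to 1000 UMIs. Cd209f then had a UMI in 79 of 1427 control cells (5.54%, 4.41 to 6.85) and 1 of 94 GS-KO cells (1.06%, 0.0269 to 5.79), and these intervals overlap. Cd209g had a UMI in 28 control cells (1.96%) and 0 GS-KO cells, too few to show a difference at that depth. At full depth a UMI of any member was present in 19.4% of control C1q-positive cells (17.4 to 21.4) and 7.55% of GS-KO ones (3.31 to 14.3), and after thinning in 6.31% and 2.13%. In cell types that should lack the gene it was nearly absent: among control C1q-negative B-like, T-like and neutrophil-like cells, Cd209f was seen in 1 of 463, 0 of 183 and 0 of 97 cells, at median depths of 3658, 5147 and 2371 UMIs. After thinning to the same 1000 UMIs it was in 0 of 450, 0 of 181 and 0 of 94 of these cells.

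Kupffer-like cells carried most of it. Cells of both libraries were clustered together without the Cd209 genes, and clusters were named from marker genes with the ending -like. Cluster 7, Kupffer-like by 12 markers including Clec4f, Vsig4, Timd4 and Marco, held 1561 of the 1891 control UMIs of Cd209f (82.5%) and 415 of the 505 of Cd209g (82.2%). Its 542 control cells had Cd209f at 176 CPM (167 to 185) and its 24 GS-KO cells at 12.2 CPM (3.96 to 28.5), a ratio of 0.0693 (0.0225 to 0.162). A Cd209f UMI was in 30.8% (26.9 to 34.9) of the control and 8.33% (1.03 to 27.0) of the GS-KO cells of this cluster. Cd209g was at 46.8 CPM against 0 UMIs, at least 6.40-fold lower against 3 counts, with an interval of the ratio up to 0.193.

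The other C1q-positive clusters differed in how much they carried. Cluster 2, an unnamed cluster of shallow cells with a median of 1518.5 UMIs in the control library and tied Kupffer and macrophage markers, had Cd209f at 174 CPM (141 to 212) in the control, a level whose interval overlaps that of cluster 7. Its GS-KO level, 157 CPM (86.0 to 264), did not differ from the control beyond counting error (ratio 0.905, 0.477 to 1.59), and all 14 GS-KO UMIs lay in 1 cell. Dividing-like cells of cluster 3 had 73.4 CPM (61.8 to 86.7) from 140 UMIs in the control and 0 UMIs in 13 GS-KO cells. Of those 13, 9 were C1q-negative, against 1 of the 91 control cells, so this cluster did not hold the same cells in both libraries and no fold is given. Macrophage-like cells had little: cluster 10, led by the elastase gene Mmp12 and the lectin gene Cd207, had 26 UMIs in 411 control cells (2.88 CPM, 1.88 to 4.22), and cluster 4, led by Gpnmb and Ms4a7, had 0 UMIs in 147 cells. The interval of cluster 10 overlaps none of those of clusters 7, 2 and 3. In the monocyte-like cluster 0, 16 UMIs of Cd209f lay in 1 C1q-positive control cell and 0 in the 102 C1q-negative ones.

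**Figure D2:**
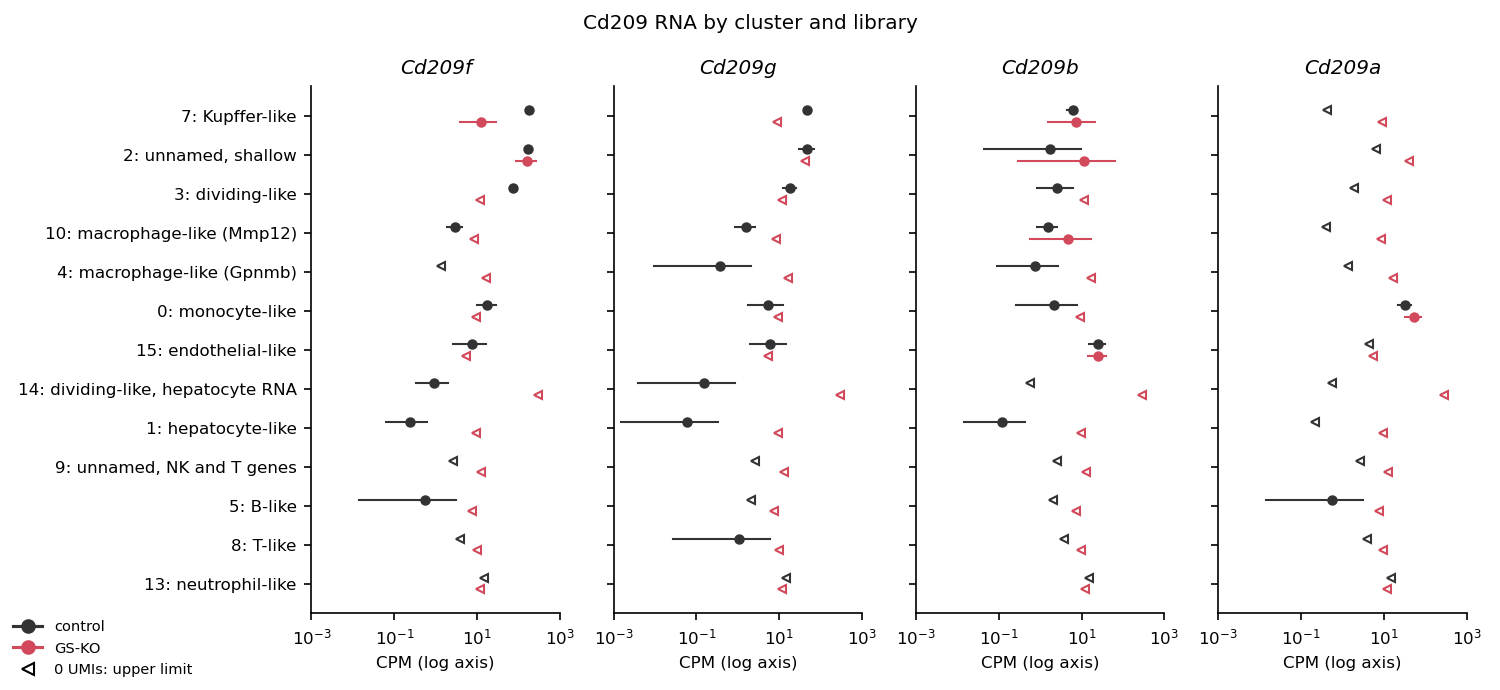
CPM of each member (x axes, log scale) by cluster (y axis) in the control (black) and GS-KO (red) libraries, as points with exact Poisson 95% intervals; open triangles mark the upper limit where a cluster had 0 UMIs. Small clusters and the low-RNA cluster 12 are not drawn. Of the clusters drawn, control levels of Cd209f and Cd209g are highest in 7, 2 and 3, of Cd209b in the endothelial-like cluster 15 and of Cd209a in the monocyte-like cluster 0.

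Clustering the phagocytes again, still without the Cd209 genes, split the Kupffer-like cells and showed where among them the lectins sat. Sub-cluster 5, led by Gfra2 (a receptor for neurturin), Fcna (ficolin A, a secreted lectin), Spic (a transcription factor of iron-recycling macrophages) and Ccr3, stayed unnamed and held 1109 of the 1891 control UMIs of Cd209f (58.6%). Its 279 control cells had Cd209f at 249 CPM (234 to 264), with a UMI in 85 cells (30.5%). Its 13 GS-KO cells had 18.5 CPM (6.0 to 43.2) from 5 UMIs in 2 cells, a ratio of 0.0743 (0.0241 to 0.174). Cd209g there was at 77.2 CPM against 0 UMIs, at least 6.96-fold lower against 3 counts, with an interval of the ratio up to 0.178. Clec4f in these cells was at 1547 and 1520 CPM and C1q at 22116 and 22113 CPM.

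Sub-cluster 3, Kupffer-like and with Cd163, the gene of the haemoglobin scavenger receptor, Cdh5 and Folr2 among its leading genes, had the largest share of carrier cells, 59 of 160 in the control (36.9%, 29.4 to 44.9), an interval that overlaps that of sub-cluster 5. Per UMI it stood lower, at 129 CPM (116 to 144), and its 9 GS-KO cells had 0 UMIs, at least 4.58-fold lower against 3 counts, with an interval of the ratio up to 0.270. Dividing-like cells (sub-cluster 2) carried Cd209f in 25.0% (17.0 to 34.4) of control cells. The shallow sub-clusters 1 and 4, both led by hepatocyte genes, had it in 32 of 246 (9.07 to 17.9%) and 11 of 84 (6.72 to 22.2%) control cells. By level, however, sub-cluster 1 stood at 245 CPM (207 to 289) in the control, an interval that overlaps that of sub-cluster 5. Its GS-KO cells stood at 266 CPM (146 to 447), a ratio of 1.08 (0.578 to 1.88). All 14 of those GS-KO UMIs lay in 1 of 25 cells. Sub-cluster 4 stood at 30.2 CPM in the control. Sub-cluster 7, led by the early response gene Egr1 with Arg2 and Il1b, carried Cd209f in 8.13% (3.97 to 14.4) of control cells. At the low end were sub-cluster 6, led by the interferon-induced chemokine gene Cxcl9 and Ccl8, with 2.94%, sub-cluster 8, led by Mmp12, with 2.26%, and the macrophage-like sub-cluster 9, led by Gpnmb, with 0.746%. The intervals of these last 3, the highest of which ends at 7.36%, overlap one another and lie below those of sub-clusters 3, 5 and 2. Sub-cluster 10, named B-like and with 14 of its 19 control cells C1q-positive, carried Cd209f in 5 cells.

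**Figure D3:**
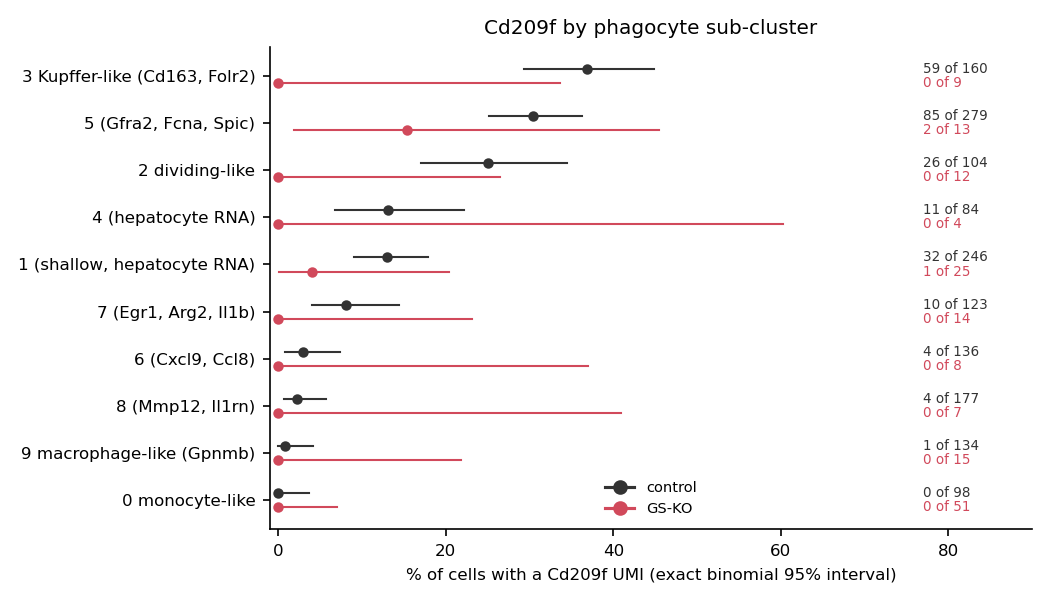
Percent of cells with at least 1 Cd209f UMI (x axis) by phagocyte sub-cluster (y axis) for the control (black) and GS-KO (red) libraries, with exact binomial 95% intervals and cell counts at the right. The small sub-clusters 10 and 11 are not drawn. Control shares of those drawn run from 36.9% in sub-cluster 3 to 0 in sub-cluster 0, and GS-KO carriers were found in sub-clusters 5 and 1.

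The mix of sub-clusters was compared as well. Among C1q-positive cells, 18.3% (16.4 to 20.4) of the control and 12.3% (6.69 to 20.1) of the GS-KO ones were in sub-cluster 5, intervals that overlap, and sub-cluster 3 made up 10.4% and 8.49%. With each sub-cluster's GS-KO level weighted by the control library's mix, the Cd209f ratio was 0.133, against 0.201 pooled. In C1q-positive cells with a Clec4f UMI it was 0.259 (0.158 to 0.401), from 1727 and 20 UMIs in 1174 and 71 cells. At a finer clustering of the phagocytes (resolution 2), a sub-cluster led by Cdkn2a, Cd163 and Gfra2 held 63 control cells and 1 GS-KO cell. It was picked with its values known. The part of this finer mix in the Cd209f ratio was not tested.

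Over the control C1q-positive cells of all sub-clusters together, the RNA was concentrated in few cells. Of the 242 control C1q-positive cells with Cd209f, 82 had 1 UMI, 64 had 2 to 4, 42 had 5 to 9 and 54 had 10 or more. The 3 highest cells had 161, 115 and 78 UMIs, all in sub-cluster 5, and the 10 highest held 34.6% of the UMIs. The 96 cells with at least 5 UMIs held 86.4%. In sub-cluster 5 alone, 85 of 279 control cells had a UMI, and 1 cell held 14.5% of the UMIs. Most control C1q-positive cells thus had none or few, and a minority had many. The median of 2493 genes with 0.5 to 2 times the UMIs of Cd209f was a UMI in 50.9% of these cells, against 15.9% for Cd209f, and 16 of those genes (0.642%) were in fewer cells. Cd209g was likewise in 8.30% of cells against a median of 24.0% for 4232 genes of like abundance, of which 46 (1.09%) were in fewer cells. Cd209b, at 4.28% against 4.81%, was close to the median of its abundance class. The depth of cells with and without Cd209f was near alike, at medians of 16176 and 14903 UMIs. The comparison with genes of like abundance pools sub-clusters that differ in Cd209f level, and the part of that in the low shares was not tested.

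Cd209f and Cd209g were found in the same cells. Of 1518 control C1q-positive cells, 102 had both, 140 had Cd209f alone, 24 had Cd209g alone and 1252 had neither. Cells with both were 42.1% of the Cd209f cells and 81.0% of the Cd209g cells, and 94.0% of Cd209g UMIs lay in cells with Cd209f. Cd209g was seen in 67 of the 96 cells with at least 5 Cd209f UMIs (69.8%) and in 13 of the 82 with 1 (15.9%). Over these cells, which share 1 library, the per-cell counts had a Pearson r of 0.845, or 0.794 without the cell highest in both (161 and 91 UMIs), and 0.733 on a log scale. The libraries' 3′ counts, which are not scaled by length, gave 3.77 Cd209f UMIs per Cd209g UMI, or 4.21 without that cell. Cd209f and Cd209b shared 34 cells, with an r of 0.241.

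**Figure D4:**
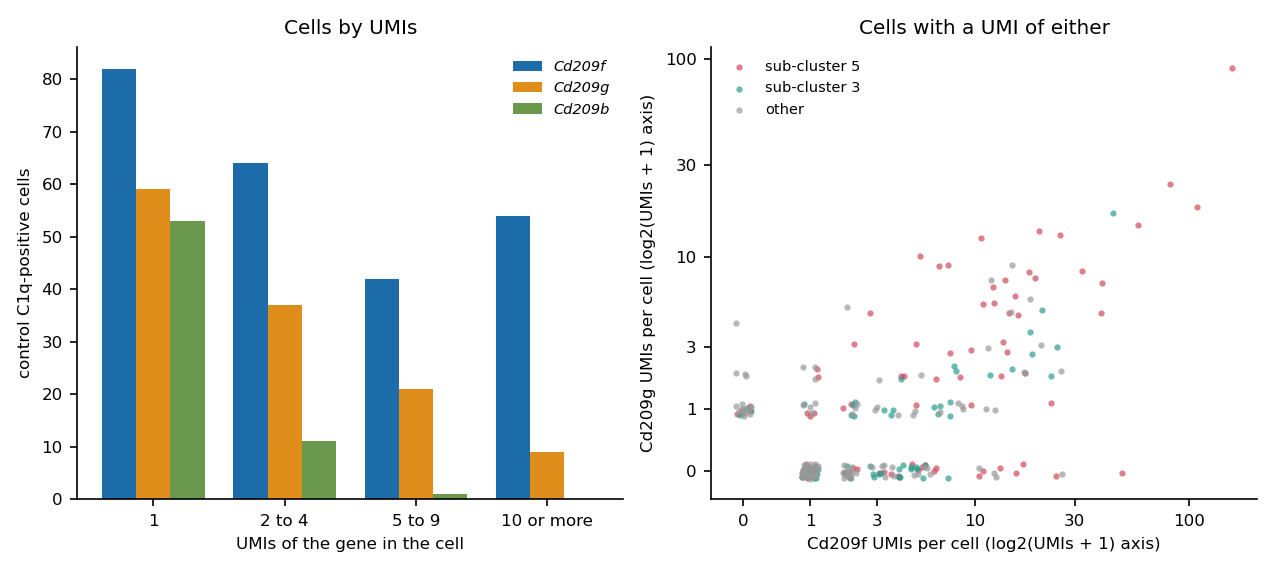
Left, number of control C1q-positive cells (y axis) by UMIs of Cd209f, Cd209g or Cd209b in the cell (x axis); right, Cd209f against Cd209g UMIs per cell for cells with a UMI of either, on log2(UMIs + 1) axes with small random shifts, coloured by sub-cluster. Cd209f has 54 cells with 10 or more UMIs and Cd209b has 0, and the cells with most Cd209f are also those with most Cd209g.

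Control C1q-positive cells with Cd209f were compared with those without, as a description of the cells that carry it. Apart from Cd209g, Cd163 differed most among genes spread over many cells, at 229 against 42.8 CPM and in 54.5% against 19.3% of cells. Fcna was at 3938 against 1499 CPM, Gfra2 at 86.8 against 30.1, Pcolce2, an enhancer of collagen processing, at 289 against 122, the eosinophil chemokine gene Ccl24 at 689 against 304 and Ltc4s, which makes leukotriene C4, at 121 against 48.9. Cdkn2a, a cell cycle inhibitor gene, stood at 69.2 against 18.3 CPM. The hepatocyte genes Mup17 and Apoc3 also ranked high, but 74.9% and 31.9% of their UMIs were in 1 cell. Of the genes ranked for Cd209g, Cd163, Cdkn2a, Fcna, Pcolce2 and Gfra2 were again among the first 10, joined by the scavenger receptor gene Marco at 246 against 101 CPM. The cell cycle gene Ube2c, at 145 against 49.4 CPM, ranked there too.

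As a group, Kupffer identity genes had a median above that of all genes in cells with Cd209f, and the other lectins one below it. Among 19 Kupffer identity genes the limit of 2-fold was passed upward by 3 (Cd163, Marco at 207 against 96.1 CPM, Pcolce2) and downward by 0. Their median log2 ratio was 0.58 against 0.098 over the 12078 genes measured. Over all genes, 3.16% were at least 2-fold higher and 4.29% lower. Beside this, haemoglobin genes stood at 1983 CPM in cells with and 665 CPM in cells without Cd209f, and 20 abundant hepatocyte genes at 4864 and 3862 CPM. In all control cells of sub-clusters 5 and 3, where Cd209f carriers were frequent, haemoglobin was at 41.1 and 5.63 CPM. In all control cells of the Kupffer-like cluster 7, which held most Cd209f UMIs, it was at 1473 CPM. The hepatocyte genes had a median log2 ratio of 0.36, with 2 at least 2-fold higher and 1 lower, and the part of such RNA in the list medians was not tested. Of 19 measured phagocyte C-type lectin genes out of 22 listed, 8 lay at least 2-fold below and 0 above, their median was −0.25, and 7 were lower with Clec4e, at 27 UMIs against 0, put at its bound. Cd207 (langerin) had 49.6 against 192 CPM, Colec12, a scavenger receptor, 37.3 against 148, Cd93 6.48 against 42.9 and Clec4d 5.56 against 33.9. The mannose receptor gene Mrc1 went the other way, at 712 against 464 CPM, and Clec4f differed less, at 4313 against 3773. Of 12 lectin signalling genes, among them Syk, Fcer1g, Tyrobp and Card9, 0 were 2-fold apart. Cd207, Colec12 and Cd93 are leading genes of clusters 10 and 4, where Cd209f stood at 2.88 CPM and 0.

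The comparison was therefore repeated inside sub-cluster 5, where 85 of 278 C1q-positive control cells had Cd209f. Cd163 was at 302 against 52.7 CPM, Marco at 220 against 73.6, Folr2, a folate receptor of resident macrophages, at 437 against 197, Vsig4, a complement receptor, at 1589 against 781 and Clec4f at 2317 against 1143. These were the 5 of 19 Kupffer identity genes at least 2-fold higher, with 0 lower and a median log2 ratio of 0.40 against −0.00042 over 9132 genes, of which 1.63% were 2-fold higher and 2.22% lower. Among 14 measured lectin genes 1 was 2-fold higher (Clec4f) and 2 lower, Cd207 at 14.3 against 45.9 CPM and Cd93 at 3.26 against 26.3. Of the 12 signalling genes, Lsp1, at 19.5 against 56.1 CPM, and Card9, from 5 against 23 UMIs (ratio 0.414, 0.123 to 1.11), were 2-fold lower.

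Across the 15 clusters with at least 20 control cells, the gene whose level ran most like that of Cd209f was Cd209g (r = 0.987 on log2(CPM + 10)), followed by Tslp (0.920), Slc5a11 (0.898), Gfra2 (0.897) and Marco (0.894). For Cd209g, Cd209f was followed by Tslp (0.941), Ltc4s (0.905) and Cd163 (0.899). The clusters share 1 library and differ in depth, so these values are descriptions.

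Kupffer identity genes that accompanied Cd209f in the control library stood nearer to level between the libraries than Cd209f did. In C1q-positive cells Cd163 had 76.3 CPM in control and 87.8 in GS-KO cells (ratio 1.15, 0.943 to 1.39), Marco 116 and 91.8 (0.792, 0.652 to 0.953), Folr2 357 and 275 (0.770, 0.690 to 0.857) and Clec4f 3870 and 3788 (0.979, 0.951 to 1.01). Pcolce2 stood further from level, at 152 and 103 CPM (0.675, 0.563 to 0.804). Of the 19 Kupffer identity genes, 0 were 2-fold apart, with a median log2 ratio of −0.11 against −0.088 for the 12166 genes. Their ratios ran from 0.594 (0.489 to 0.715) for Paqr9 to 1.29 (1.20 to 1.38) for Id3. Of the 19 lectin genes, 3 were at least 2-fold higher in the GS-KO library, Cd207 (166 and 336 CPM), Cd93 (36.4 and 95.7) and Clec4e (27 and 9 UMIs), and 1 lower, Clec9a (109 and 1 UMI, ratio 0.173, 0.00434 to 0.985), with a median of 0.088. Of the 12 signalling genes 0 were 2-fold apart. Inside sub-cluster 5, Cd163 was at 138 and 81.4 CPM (ratio 0.588, 0.366 to 0.898) and Pcolce2 at 234 and 141 (0.601, 0.423 to 0.831). Marco, at 124 and 207 (1.67, 1.24 to 2.20), went the other way. There 0 of 19 Kupffer identity genes were 2-fold apart, where 15.8% of 9229 genes were 2-fold lower and 4.17% higher (10.3% lower with genes at 0 put at their bound).

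Genes known from other cells, and some tissue macrophage genes, differed between the libraries too. In C1q-positive cells, 14 of 20 abundant hepatocyte genes were at least 2-fold lower in the GS-KO library (median log2 ratio −1.37). Their sum was 4042 and 3385 CPM, but most of it came from Apoc1 (1825 and 1948 CPM) and Trf (819 and 933 CPM), which were not lower. Haemoglobin genes were at 902 and 36.1 CPM. Of 8 sinusoidal endothelial genes, a list that includes Cd209b, 4 were at least 2-fold higher. These were Stab2 (3.24 and 36.1 CPM), Lyve1 (9.52 and 40.8), Clec4g (12.1 and 42.4) and Fcgr2b (24.3 and 67.5). The endothelial-like cluster 15 held 126 control and 93 GS-KO cells, of which 109 and 89 were C1q-negative. The rest were among the C1q-positive cells. Of 17 tissue macrophage genes listed with Lyve1 and Folr2, 4 were at least 2-fold higher and 0 lower, with a median of 0.23. Besides Lyve1, which is in both lists, these were F13a1 (3.53 and 28.2 CPM), Pf4 (107 and 497) and Ednrb (6.49 and 43.1). Sub-cluster 11, with Pf4 and Ednrb among its leading genes, made up 5 of 1518 control and 2 of 106 GS-KO C1q-positive cells. Those shares were 0.329% (0.107 to 0.767) and 1.89% (0.229 to 6.65), intervals that overlap. In sub-cluster 5, 13 of 19 measured hepatocyte genes were 2-fold lower, or 10 with genes at 0 put at their bound. Their sum, 2383 and 2419 CPM, was again mostly Apoc1 (569 and 736 CPM) and Trf (1276 and 1505 CPM), and haemoglobin stood at 41.1 and 7.40 CPM. With mitochondrial, ribosomal, haemoglobin and hepatocyte genes taken out of the totals, the Cd209f ratio over C1q-positive cells was 0.205. The parts of carried-in RNA and of the mix of cells in the other differences were not tested.

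Cd209b was rarer and was found in Kupffer-like cells and in C1q-negative endothelial-like cells, where Cd209a, Cd209f and Cd209g had 0 UMIs. Of 104 control UMIs, 54 lay in 40 Kupffer-like cells, 14 in 13 macrophage-like cells of cluster 10 and 20 in 10 endothelial-like cells. C1q-positive cells had it at 3.41 CPM (2.71 to 4.23), from 82 UMIs, in the control library and at 5.49 CPM (2.21 to 11.3), from 7 UMIs, in the other, a ratio of 1.61 (0.628 to 3.47). With the C1q limit lowered to 0.1% the ratio was 2.98 (1.52 to 5.38), from 82 control and 13 GS-KO UMIs. All 16 GS-KO UMIs in C1q-negative cells lay in the endothelial-like cluster, so those added by the lower limit came from endothelial-like cells. The Cd209f ratio of 0.201 lies below both intervals. Most carriers had 1 UMI, 53 of 65 control cells, and the highest had 5.

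Endothelial-like cells that were C1q-negative had the highest Cd209b level among the named populations, with no difference between the libraries beyond counting error. It stood at 31.6 CPM (19.0 to 49.3) in the control, from 19 UMIs in 9 of 109 cells (8.26%), and at 25.6 CPM (14.7 to 41.6) in the GS-KO library, from 16 UMIs in 8 of 89 cells (8.99%). The ratio was 0.812 (0.391 to 1.67). The control interval lies above that of Kupffer-like cells, at 6.09 CPM (4.58 to 7.95), while the shares of cells, 8.26% and 7.38%, do not differ beyond counting error, at median depths of 3875 and 15782 UMIs. Cd209b had 0 UMIs in the B-like, T-like and neutrophil-like clusters of either library. Among phagocyte sub-clusters of over 100 control cells it was highest in the Kupffer-like sub-cluster 3, in 21 of 160 cells (13.1%, 8.31 to 19.4; 9.75 CPM), against 10 of 279 (3.58%, 1.73 to 6.49; 4.04 CPM) in sub-cluster 5, the reverse of the order by CPM seen for Cd209f, though these intervals of CPM (6.37 to 14.3 and 2.39 to 6.38) just meet.

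Cells with Cd209b in the control C1q-positive set had more Retnla, a secreted protein of alternatively activated macrophages, at 1347 against 57.4 CPM, with Slpi, Prg4 and Alox15. These rest on few cells: Retnla was seen in 4.62% of the 65 Cd209b cells, and 44.2% of its UMIs were in 1 cell. Cxcl13, a B cell chemokine, was in 32.3% of Cd209b cells against 9.15% of the others, Cd209f in 52.3% against 14.3% and Cd209g in 35.4% against 7.09%. Retnla, Prg4, Alox15 and Cxcl13 also lead cluster 16, a group of 9 control and 2 GS-KO cells with Kupffer markers, in which 3 of the 9 control cells carried Cd209b. Over clusters, the genes most like Cd209b were Fgfbp3 (r = 0.974), Ripply3, She, Tspan18 and Arhgap31.

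Cd209a, the member known from dendritic cells, had 0 UMIs in the C1q-positive cells of both libraries, which at 3 counts allows a UMI in up to 0.198% of control and 2.83% of GS-KO cells (0.243% and 3.42% by the exact binomial interval). It was found in 7 cells in all, 5 control and 2 GS-KO. Of the 31 control UMIs 30, and all 21 GS-KO UMIs, lay in the C1q-negative cells of the monocyte-like cluster 0. There the level was 36.4 CPM against 53.1 CPM in GS-KO cells, a ratio of 1.46 (0.794 to 2.64), which rests on 4 and 2 cells.

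No cluster and no phagocyte sub-cluster, at Leiden resolutions of 0.5, 1 or 2, met the markers for a dendritic-like name, so no Cd209a value is given for such a class. Single cells were read instead. A control cell with 12 UMIs of Cd209a had 199 UMIs of the MHC class II gene H2-Ab1, 2 of Flt3 (the receptor of the dendritic growth factor), 3 of Itgax and 5 of Clec10a. Another with 12 had 119 of H2-Ab1, 1 of Flt3, 1 of Itgax and 6 of Clec10a, and a GS-KO cell with 17 had 107, 1, 1 and 2. All 3 had 0 UMIs of the monocyte gene Ly6c2 and 3 to 14 of Ccr2. The other carriers looked different: 2 control cells with 3 UMIs each had Ly6c2 (27 and 2), much Lyz2 (223 and 226) and little H2-Ab1 (8 and 0). A GS-KO cell with 4 UMIs had Flt3 (4), Siglech (3) and Ly6c2 (6), 0 of H2-Ab1, and was called a doublet by Scrublet, and 1 B-like control cell had 1 UMI.

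**Figure D5:**
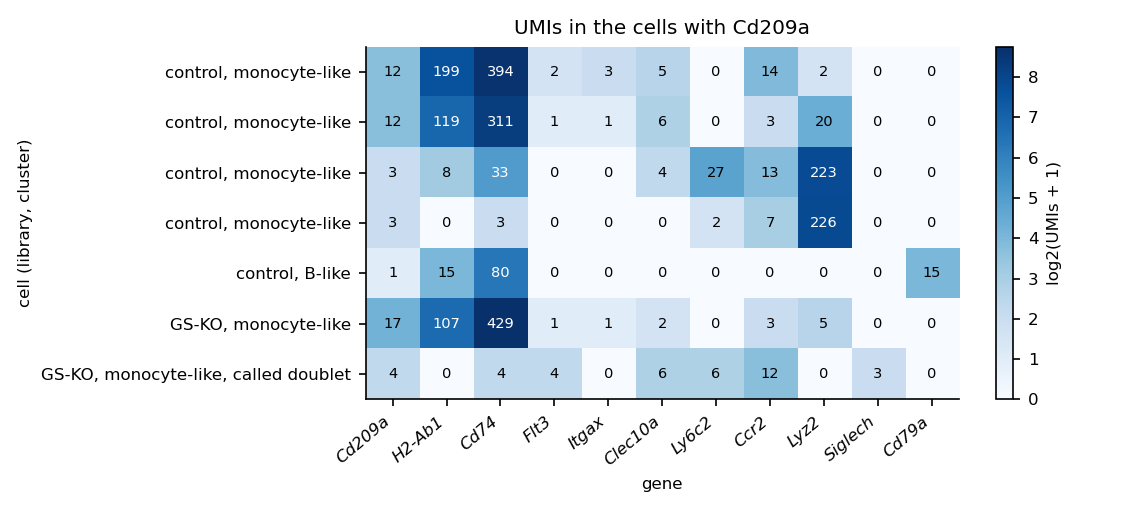
UMIs of selected genes (x axis) in each of the 7 cells with Cd209a (y axis, named by library and cluster), coloured by log2(UMIs + 1). The 3 cells with 12 or more Cd209a UMIs have over 100 UMIs of H2-Ab1 and 0 of Ly6c2.

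Marker gates gave Cd209a ratios above, at and below 1, so no direction is drawn. Phagocytes with a UMI of at least 3 dendritic markers had a GS-KO over control ratio of 9.99, but 93.1% and 62.3% of these cells were C1q-positive, so this gate mostly held macrophages. Among C1q-negative cells of this gate, 89 control and 40 GS-KO, Cd209a was at 38.1 and 38.3 CPM. C1q-negative phagocytes with a UMI of Flt3 or Zbtb46, a gate chosen after the data were seen, were 3 control and 6 GS-KO cells with 24 and 21 UMIs, a ratio of 0.15. Among sub-cluster 0 cells with at least 50 H2-Ab1 UMIs, Cd209a was seen in 2 of 7 control and 1 of 2 GS-KO cells. Over clusters the genes most like Cd209a were Galnt9, Vcan, Elane, Chil3 and Serpinb2, which with 30 of 31 control UMIs in 1 cluster is a likeness to that cluster.

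Cd209c, Cd209d and Cd209e were nearly missing. They had 1, 5 and 5 UMIs over all kept control cells and 0 in the GS-KO library. The 5 Cd209e UMIs lay in 5 C1q-positive cells, and 4 of the 5 Cd209d UMIs and the single Cd209c UMI lay in the control cell with 12 Cd209a UMIs and most H2-Ab1.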

How the data were processed

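The authors ran Cell Ranger with mm10, per the submitters' processing notes, and deposited raw UMI counts per gene and barcode; the matrix header carried software version 3.1.0. The labels name a 3PrimeV2 kit and once call the assay single-nucleus. Members, lists and most choices were made with earlier results of these data known. Kept cells were clustered without Cd209 genes (scanpy 1.11.5: 10000 UMIs per cell, log, 2000 variable genes, 30 components, 15 neighbours, Leiden resolution 1, seed 1). A name needed 3 markers at least 2-fold higher and in at least 20% of cells, and more than any other class. No other class could have more among the 10 leading genes, and 5 markers were needed where none of its own was among them. Doublets called by Scrublet, 9 among control and 6 among GS-KO cells, stayed in and were dropped as an alternative. UMIs were summed per population and scaled to 1000000. List ratios used genes with at least 20 UMIs and a prior count of 0.5. They were checked on simulated data for the comparison of libraries, among 32285 genes. At 4-fold, 100% of 100 lowered and 100% of 100 raised genes were recovered. These were drawn only from genes well above the limit of 20 UMIs, and the counts were simulated without clumping in cells. Recovery of genes near that limit was therefore not tested. Of unchanged measured genes, 6.56% passed the 2-fold limit downward and 1.92% upward.

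Genes named with a member are the 10 of highest ratio of CPM plus 10 (at least 100 UMIs), and over clusters the 5 of highest r (at least 50 UMIs), without mitochondrial, ribosomal, haemoglobin, Gm and Rik genes; from lists, those with most UMIs or the largest ratio. Any gene beyond these was picked with its values known. Tools were Biopython 1.88, pandas 2.3.3, scipy 1.17.1 and Python 3.11.15.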

Additional observations from a re-analysis of the deposited data

Results flagged for a closer look

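Barcodes left out by the cell rule, most of them for mitochondrial RNA, also held member UMIs. The 1799 left-out control barcodes had 33 UMIs of Cd209f and 5 of Cd209g, and the 704 left-out GS-KO barcodes had 0 of either. Of the 33, 19 lay in 153 barcodes that met the C1q limit, at 29.8 CPM (17.9 to 46.5), and 14 in 1646 that did not, at 1.42 CPM (0.776 to 2.38). Of the left-out GS-KO barcodes 13 met the C1q limit. Their 0 UMIs of Cd209f had an interval up to 65.35 CPM, which overlaps that of the control, so no difference can be read there. The left-out barcodes were listed because the comparisons above did not use them.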

How the results depend on the processing

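The Cd209f ratio of 0.201 was below 1 under all 12 alternatives, from 0.0659 to 0.435: it was 0.435 as a mean over cells, 0.0660 without the cell with most UMIs in each library and 0.0659 without cluster 2, an alternative added after the data were seen. The latter 2 drop the GS-KO cell that holds 14 of the 20 UMIs, by construction. The Cd209g bound ran from a ratio of 0.111 to 0.142 under 9 alternatives (0.142 in cells with Clec4f, of 0.113 in all). With cells thinned to 1000 UMIs no bound could be had for Cd209g, since 3 counts lie above the control level, and no value could be had as a mean over cells or with sub-cluster weights. The Cd209b ratio of 1.61 ran from 1.24 to 3.04 over 12 alternatives. The share of C1q-positive cells with a member was, after thinning, 6.31% of control and 2.13% of GS-KO cells, and was 23.7% among control cells with Clec4f. Cd209a gave no ratio in C1q-positive or dendritic-like cells under any alternative. No paired analysis was possible because each group is 1 mouse. Precision was limited by 106 C1q-positive GS-KO cells, and no replicate exists.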
